A study of Mus musculus with 10 samples.

Results

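Binding of p65, the RelA subunit of NF-kB, was compared between regulatory T cells (Treg) and conventional T cells (Tconv) after stimulation through the T cell receptor. The members are the regions of the authors' 2 peak lists for stimulated cells, after overlapping entries of a list had been merged. A region counted as shared where it overlapped a region of the other list by at least 1 bp. The Treg list held 11077 regions and the Tconv list 5734, which together covered 11146 separate regions of the 11923 found in the 4 lists of the series. Of the Treg regions, 5463 had no Tconv counterpart (49.3%, 95% Wilson interval 48.4 to 50.2%) and 5614 were shared. Of the Tconv regions, 238 had no Treg counterpart (4.15%, 3.66 to 4.7%) and 5496 were shared. The rule fixes these shares, and they depend on the unequal list lengths: when the Treg list was shortened to its 5734 strongest regions, 25.6% of Treg and 26.3% of Tconv regions lacked a counterpart.

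All cells came from spleens and lymph nodes of C57BL/6 mice, with no transgene, age or sex in the labels. The stimulated groups spent 3 h on plates coated with an antibody against CD3, which carries the receptor's signal, with soluble antibody against the co-stimulatory receptor CD28. IL-2 was added at 2 ng/ml to Tconv and at 10 ng/ml to Treg. Effects of cell type and of IL-2 dose therefore cannot be told apart in any comparison below. Unstimulated Treg and Tconv were precipitated with the same antibody against p65, and the culture of those cells was not given. Each of the 4 groups had 2 libraries, but 1 list was deposited per group, made from both, and the spread between libraries is therefore not known. Regions are not replicates, and the intervals and p-values below cover counting over regions alone.

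NF-kB factors are dimers that wait in the cytoplasm bound to inhibitors of the IkB family. Signals from the T cell receptor and CD28 lead to destruction of the inhibitor, and the dimers enter the nucleus and bind kappa B sites in promoters and enhancers. Among their targets are the genes of their own inhibitors, cytokines, cytokine receptors and survival factors. Treg are marked by the transcription factor Foxp3 and restrain other immune cells through inhibitory receptors, suppressive cytokines and consumption of IL-2.

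The marker genes showed regions at most T cell loci and at few loci of other blood cells. Each region was given to the closest protein-coding gene, measured from its strongest summit to the gene body and up to 50 kb away. Of the T cell markers, Cd3d and Cd4 each had 1 shared region, and Cd5 had 4 shared and 4 Treg-only regions in the Treg list. Cd3e had only 2 Treg-only regions (up to 7.77-fold, against a median of 9.22-fold over Treg-only regions). Cd3g had no region in either list. None of the 12 B cell markers, which include Ms4a1 and Pax5, had a region in either list. Of the 17 myeloid and dendritic cell markers, 2 had one (Itgam and Fcgr3, both shared), and of the 10 NK cell markers 1 had one (Klrb1c). The Itgam region was bound at 27.8-fold in Treg and 38.7-fold in Tconv, above that of Cd4 (17.6-fold and 14-fold). The Fcgr3 region was bound at 8.76-fold and 10.5-fold. Outside these marker lists, Cd8b1 had 1 Tconv-only region (13.2-fold) and Cd8a had none. Over all protein-coding genes, 25.2% had a region in the Treg list. At the Treg markers Foxp3 and Ikzf2 all regions were Treg-only, while Il2ra and Ctla4 carried Treg-only and shared regions and Tnfrsf18 shared regions alone. A p65 region near a gene does not measure its expression, so these counts check the labels only in part.

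The promoters below are examples from each class, and their bases alone do not show which list held a summit. By fold, Icam1 and Samsn1 led the promoters with a Treg-only summit and Nr4a1 and Tnfaip3 those with a shared one. Rpl41 and Snx14 led those with a Tconv-only one, and the Treg genes Foxp3, Il2ra and Ctla4 were added. All were chosen after their values were seen. Each line gives the 250 bases before the transcription start on the gene's strand, 5′ to 3′, from RefSeq (GRCm38.p6, the assembly behind mm10). Capitals mark matches on either strand to 2 kappa B forms, the general form GGGNNNNNCC and the palindromic form GGAANTTCC.
Icam1: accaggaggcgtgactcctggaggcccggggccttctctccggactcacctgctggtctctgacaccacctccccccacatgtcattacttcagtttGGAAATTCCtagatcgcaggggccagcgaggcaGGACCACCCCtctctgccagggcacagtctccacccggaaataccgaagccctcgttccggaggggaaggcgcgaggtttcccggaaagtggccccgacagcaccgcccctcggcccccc
Samsn1: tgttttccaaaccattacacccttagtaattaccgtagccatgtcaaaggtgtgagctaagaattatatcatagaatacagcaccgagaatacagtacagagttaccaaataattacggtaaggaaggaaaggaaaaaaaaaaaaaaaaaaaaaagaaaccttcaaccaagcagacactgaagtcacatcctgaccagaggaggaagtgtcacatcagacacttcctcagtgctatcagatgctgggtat
Foxp3: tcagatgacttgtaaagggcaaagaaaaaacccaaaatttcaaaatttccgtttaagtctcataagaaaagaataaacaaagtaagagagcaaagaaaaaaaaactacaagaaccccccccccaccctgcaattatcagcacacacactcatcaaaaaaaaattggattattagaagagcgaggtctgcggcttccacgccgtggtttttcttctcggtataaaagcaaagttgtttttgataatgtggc
Nr4a1: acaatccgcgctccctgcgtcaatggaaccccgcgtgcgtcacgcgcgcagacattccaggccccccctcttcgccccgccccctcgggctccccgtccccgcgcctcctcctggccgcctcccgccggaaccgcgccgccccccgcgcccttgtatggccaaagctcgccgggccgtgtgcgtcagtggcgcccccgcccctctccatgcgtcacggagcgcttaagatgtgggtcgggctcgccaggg
Tnfaip3: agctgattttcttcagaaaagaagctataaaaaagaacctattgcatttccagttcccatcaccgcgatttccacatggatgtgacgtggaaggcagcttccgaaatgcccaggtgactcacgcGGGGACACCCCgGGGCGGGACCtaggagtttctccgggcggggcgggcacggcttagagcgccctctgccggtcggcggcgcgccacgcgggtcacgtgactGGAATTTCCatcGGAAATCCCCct
Il2ra: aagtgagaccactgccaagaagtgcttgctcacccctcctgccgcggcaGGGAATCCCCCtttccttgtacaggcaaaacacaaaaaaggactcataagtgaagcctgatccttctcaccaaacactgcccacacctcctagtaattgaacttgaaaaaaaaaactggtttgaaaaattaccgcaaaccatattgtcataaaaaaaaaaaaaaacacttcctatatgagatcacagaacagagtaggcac
Ctla4: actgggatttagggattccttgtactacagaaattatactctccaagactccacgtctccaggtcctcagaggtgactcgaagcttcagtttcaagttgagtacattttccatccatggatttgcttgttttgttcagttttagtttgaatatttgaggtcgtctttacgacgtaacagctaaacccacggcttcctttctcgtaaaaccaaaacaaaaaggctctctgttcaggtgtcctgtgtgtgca
Rpl41: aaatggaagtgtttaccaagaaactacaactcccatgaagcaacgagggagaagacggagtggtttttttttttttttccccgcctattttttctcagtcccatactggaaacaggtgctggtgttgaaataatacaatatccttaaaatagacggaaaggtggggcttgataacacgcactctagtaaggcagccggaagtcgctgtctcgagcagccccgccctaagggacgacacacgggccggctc
Snx14: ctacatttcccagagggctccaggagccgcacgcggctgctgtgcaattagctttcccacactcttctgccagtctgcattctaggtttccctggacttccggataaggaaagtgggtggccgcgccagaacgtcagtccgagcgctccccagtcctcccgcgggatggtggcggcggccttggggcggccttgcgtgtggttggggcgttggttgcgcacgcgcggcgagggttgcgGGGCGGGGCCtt

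Icam1 encodes an adhesion molecule bound by integrins of T cells, and its promoter (chr9:21015690-21015939, plus strand) held a Treg-only summit 79 bases before the start, at 17.9-fold enrichment over the local background. The capitals in its sequence show 1 match to each form. The Samsn1 promoter (chr16:75909267-75909516, minus strand) had a Treg-only summit of 17.2-fold and no match. Foxp3 (chrX:7579426-7579675, plus strand) had a Treg-only summit 204 bases before the start, at 14.8-fold, and no match in this stretch.

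Among the shared promoters, Nr4a1 (chr15:101266596-101266845, plus strand), which encodes an orphan nuclear receptor induced by antigen receptor signals, was bound at 95.3-fold in Treg and 61.4-fold in Tconv without a match to either form. Tnfaip3 (chr10:19015411-19015660, minus strand), which encodes the NF-kB inhibitor A20, was bound at 86.1-fold in Treg and 70.2-fold in Tconv and held 4 matches to the general and 1 to the palindromic form. The promoter of Il2ra (chr2:11642542-11642791, plus strand), the alpha chain of the IL-2 receptor, was bound at 21.7-fold in Treg and 18.7-fold in Tconv and held 2 overlapping matches. The promoter of the inhibitory receptor Ctla4 (chr1:60908775-60909024, plus strand) was bound at 31.3-fold in Treg and 11.7-fold in Tconv and held none. The Tconv-only promoters of Rpl41, a ribosomal protein gene (chr10:128549169-128549418, minus strand), and Snx14, a sorting nexin gene (chr9:88438930-88439179, minus strand), were both bound at 12.9-fold, with 0 matches and 1 match.

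Over all 21262 promoter windows, each of 250 bases before to 50 bases after a start, 57.1% held the general form on at least 1 strand. The share was 74.1% (71.9 to 76.1%) of the 1635 windows with a shared summit and 68.7% (65.9 to 71.4%) of the 1087 with a Treg-only summit. Of the 78 windows with a Tconv-only summit it was 61.5% (50.4 to 71.6%), an interval that includes the share of all windows. Base composition moved with it: the median GC content was 64.3% under shared, 63% under Treg-only and 61.8% under Tconv-only summits and 56.3% over all windows, and its part in the shares was not tested. The palindromic form was in 1.59% (1.09 to 2.32%) of shared, 1.29% (0.769 to 2.15%) of Treg-only and 1.06% of all windows. The Treg-only interval includes the share of all windows, and 1 of the 78 Tconv-only windows held this form. The AP-1 form TGANTCA was in 4.16% of shared and 3.31% of Treg-only windows, below the 6.99% of all windows. In Tconv-only windows the AP-1 share was 2.56% (0.706 to 8.88%). A match is a run of letters and does not show a bound site.

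Treg-only regions were mostly weak and Tconv-only regions were weaker still at their top end. The median fold enrichment was 9.22 for Treg-only regions, 15.8 for shared regions in the Treg list, 13.1 for shared regions in the Tconv list and 10.2 for Tconv-only regions. The highest Treg-only region reached 63-fold, against 17.8-fold for the highest Tconv-only region. Presence in a list and strength come from the same call, so these values are a description. When each list was divided into 10 equal bins by fold, 87% of the weakest bin of the Treg list was Treg-only, 57.2% of the fifth bin and 4.88% of the strongest. In the Tconv list the share without a counterpart was 8.89% in the weakest bin, 3.84% in the fifth and 0% in the 2 strongest bins, where the Wilson bound of 0 in 573 regions was 0.666%.

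**Figure D1:**
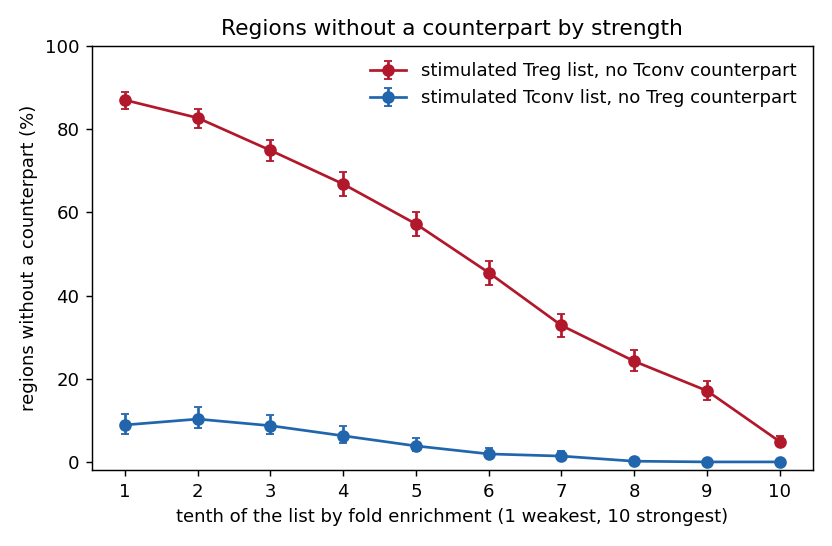
Percent of regions without a counterpart in the other stimulated list (vertical axis) by 10 equal bins of each list from the weakest to the strongest fold enrichment (horizontal axis), with 95% Wilson intervals over regions. The Treg curve falls from 87% to 4.88%, and the Tconv curve stays at or below 10.3%.

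The fold enrichment and the −log10 p of each entry together give the number of fragments stacked at its summit, as a whole number in 100% of entries (within 0.01 fragments). The lowest local background was 5.07 fragments in the Treg list and 4.98 in the Tconv list, although the total reads of the libraries are unknown. The Treg list reached down to 45 fragments and the Tconv list to 56. Of the 5463 Treg-only regions, 3627 (66.4%) had at least 56 fragments in Treg, 1120 (20.5%) were above the Tconv median of 85, and 473 (8.66%) had at least 112. A region missing from the Tconv list was below that list's cut or not reproducible between its libraries, and its fragments in Tconv are not known. With 1 −log10 p cut-off for both lists (38.1, the lowest value in the Tconv list), 38.1% of 8329 Treg regions and 11.5% of the 5734 Tconv regions lacked a counterpart.

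By distance, few regions lay near the boundary of the rule, but the small Tconv-only class depended on the overlap asked for. With 50% reciprocal overlap, 706 Tconv regions lacked a counterpart (12.3%), against 238 by the rule (4.15%). Treg-only regions lay a median of 33.2 kb from the nearest Tconv region, and 333 (6.1%) lay within 1 kb of one. The smallest gap was 20 bp, at Pura, and the next were 25 bp at Gm52008 (11.7-fold) and 29 bp at Ankrd60 (12.7-fold). Just inside the rule, the smallest overlap was 3 bp, on chromosome 15 (10.6-fold in Treg and 11.7-fold in Tconv). Next, a region at Skil overlapped its Tconv counterpart by 35 bp and was bound at 16.4-fold in Treg against 35.1-fold in Tconv. The median overlap of shared regions was 984 bp.

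The strongest Treg-only regions with a gene lay at Itgb8, Tnfrsf8, Mdfic, Nxpe3 and Ikzf2. The highest lay inside Itgb8, which encodes an integrin chain that releases active TGF-beta, 1.9 kb inside the gene from its listed start (chr12:119235596-119236721), with 382 fragments and 63-fold enrichment. A second Itgb8 region, 33.7 kb from the start, had 258 fragments (38.6-fold), and all 7 regions at this gene, from 51 to 382 fragments, were Treg-only. Tnfrsf8, which encodes the TNF receptor family member CD30, followed with 327 fragments (54-fold, chr4:145284384-145285335). Lrrc32, which encodes GARP, the surface docking protein for latent TGF-beta, had 2 Treg-only regions of 244 and 223 fragments 29.9 kb and 32.8 kb outside the gene. They opened a row of 10 Treg-only regions over 53 kb between Lrrc32 and Emsy, 8 of which were nearer to Emsy.

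Further high regions lay at Mdfic (300 fragments, 49.2-fold), Nxpe3 (303 fragments, 45.9-fold), Ikzf2 (271 fragments, 44.8-fold), Ptger2, a prostaglandin E2 receptor (244 fragments, 40.3-fold), Twsg1 (242 fragments, 40-fold), Eea1 (230 fragments, 38-fold) and Cd47, the signal that protects cells from phagocytosis (223 fragments, 36.9-fold). Of the 15 strongest, 4 had no protein-coding gene within 50 kb. None of the 15 overlapped a region of either unstimulated list.

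Some Treg-only regions stood in rows. There were 47 rows of at least 5 consecutive Treg-only regions with no more than 25 kb between neighbours, holding 283 regions (5.18% of all Treg-only regions). The row with most regions was at Ikzf2, which encodes Helios, a zinc finger factor found in most Treg, with 14 regions over 104 kb. Ikzf2 had 21 regions in all, from 51 to 271 fragments, and every one was Treg-only. One of them overlapped a region of the unstimulated Treg list. Besides the row at Lrrc32 and Emsy, there followed 10 regions at Prkca, 9 at Prkch (both protein kinase C genes), 8 at the adhesion receptor Cd226 and 8 at the survival gene Bcl2. Rows of 7 lay at Samsn1, at the other end of Ikzf2, and around Rgs1 and Btla, where 4 and 5 of the 7 were assigned to the named gene. Other rows spanned several genes or had no gene within 50 kb.

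By gene, 5686 protein-coding genes had a region in at least 1 list. Of these, 2077 had regions in the Treg list alone (36.5%, or 9.49% of all 21883 protein-coding genes), 3428 in both (15.7% of all genes) and 181 in the Tconv list alone. Each list was assigned by its own summits, so a gene in 1 list alone can hold a shared region whose counterpart went elsewhere. Of the 181 genes, 131 had a Tconv-only region, while Rnf31, for example, had only a shared one (21.8-fold in Tconv). At the common cut-off 1135 genes had regions in the Treg list alone and 467 in the Tconv list alone, and 8026 had regions in both lists when every gene within 50 kb was counted. At least 1 Treg-only region was assigned to 3149 genes (14.4% of all genes), of which 1106 (35.1%) also had a shared region. Most of them, 2292 genes, had a single one and 128 had 5 or more. The highest numbers were 24 at Inpp4b, a phosphoinositide phosphatase, 24 at the forkhead factor Foxp1, the 21 at Ikzf2 and 16 at Tox, an HMG box factor. Inpp4b, Foxp1 and Tox also held 11, 17 and 6 shared regions, whose strongest was bound at 76.5-fold, 59.5-fold and 70.3-fold in Treg and at 33-fold, 39-fold and 47-fold in Tconv. With no Tconv region at all, Ikzf2 was followed by Mdfic, Cd47, Rora, a nuclear receptor, and Celf2, an RNA-binding protein, with 9 Treg-only regions each, and by Itgb8 with 7.

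**Figure D2:**
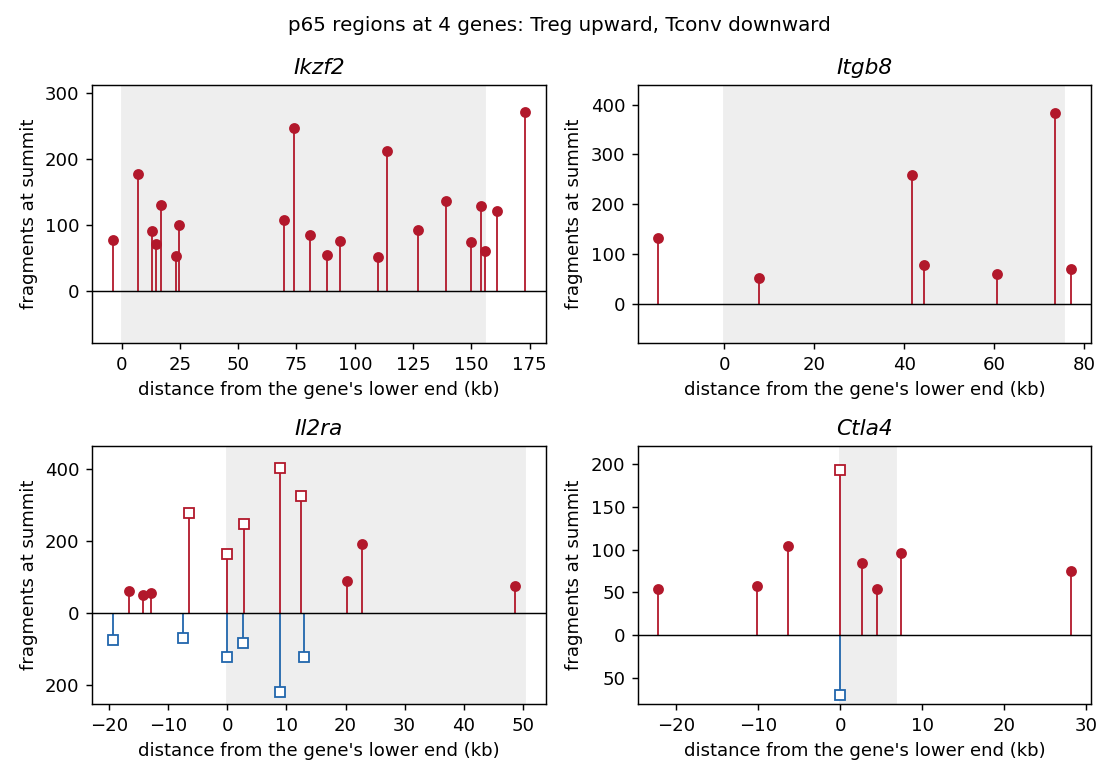
Fragments at the summit of each region assigned to 4 genes, against the distance in kb from the end of the gene with the lower coordinate, with the gene body shaded. Treg regions point up and Tconv regions down, with filled circles for regions without a counterpart and open squares for shared ones. All 21 Ikzf2 and all 7 Itgb8 regions are Treg-only, while Il2ra and Ctla4 hold both kinds.

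The gene lists differed in the share of their Treg regions that were Treg-only, to be read against 49.3% over all regions. Because weak regions were more often Treg-only, each share is also set beside that of all Treg regions from the same bins of fold, called the same strength below. No test was made of any list, and the lists were chosen with earlier results known.

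Suppression effectors had the highest share of the lists with more than 2 Treg regions. Of their 30 Treg regions, 27 were Treg-only (90%, 74.4 to 96.5%), against 41% for all regions of the same strength, and 24 of 27 were at the common cut-off. Itgb8 held 7 and Il10 held 6 of the 27 Treg-only regions. Il2ra, Ctla4, Lag3 and Tnfrsf18, which carried shared regions, were counted in other lists, and the share depends on that placement. Regions in the Treg list were found at 10 of the 16 suppression effector genes, against 25.2% of all protein-coding genes. The Tconv list had regions at 2, which the Treg list held as well. Over all protein-coding genes 15.7% had regions in both lists, so 2 of 16 is near that share. Besides Itgb8 and Lrrc32, the suppressive cytokine Il10 had 6 Treg-only regions of 57 to 170 fragments, 5 of them on one side of the gene. Nrp1, a co-receptor present on thymus-derived Treg, had 3 (up to 125 fragments). Entpd1, which encodes the ATP-degrading enzyme CD39, had 2 (up to 150 fragments). The exceptions were Tgfb1, with 2 shared regions and none that was Treg-only (26.9-fold in Treg and 21.2-fold in Tconv), and Lgals1, with 1 shared and 1 Treg-only region. Ebi3, Fgl2, Areg, Prf1, Ido1 and Penk had no region.

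Inhibitory receptors followed, with 32 Treg-only regions of 47 (68.1%, 53.8 to 79.6%), against 41.4% at the same strength. This list includes Cd83 and leaves out Ctla4, which was counted with the co-stimulatory receptors, and the shares of both lists depend on that placement. Cd83, an immunoglobulin family surface protein, had 7, of up to 145 fragments, and 1 shared region with 224 fragments in Treg and 59 in Tconv. Btla had 5 (up to 22.9-fold), Tigit 5 (up to 17.3-fold), Pdcd1 5 (up to 10.7-fold) and Cd96 2 (up to 16.2-fold). At Tigit the shared region near the listed start was bound at 13.9-fold in both lists.

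Among the co-stimulatory and TNF family receptors, 52 of 96 regions were Treg-only (54.2%, 44.2 to 63.8%), against 42.6% at the same strength. Ctla4 had 7 Treg-only regions of 54 to 104 fragments around the shared promoter region, which had 192 fragments in Treg and 69 in Tconv. Tnfrsf18, which encodes GITR, had 2 shared regions and none of the other classes. The stronger had 340 fragments in Treg and 131 in Tconv, and the weaker 268 and 92. The co-stimulator Icos was bound in both lists inside the gene, with 484 fragments in Treg and 296 in Tconv, and had 5 Treg-only regions of 48 to 91 fragments. Cd6, a scavenger-type receptor of T cells, had 6 Treg-only regions (up to 21.7-fold), Tnfrsf9 4 (up to 19.9-fold) and the death receptor Fas 2 (up to 19-fold).

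Lineage transcription factors held 108 Treg-only regions of 210 (51.4%, 44.7 to 58.1%), against 42.1% at the same strength. Foxp3 had 2 regions, both Treg-only and absent from the unstimulated lists: 89 fragments at the promoter printed above and 194 fragments (32.1-fold) inside the gene, 3.66 kb after the nearest listed start (chrX:7583694-7584964). Tox (up to 29.9-fold), Nfil3 (24.3-fold) and Batf (24.2-fold) had the next strongest Treg-only regions after Ikzf2 and Foxp3. Factors of naive T cells were bound in both lists and had Treg-only regions as well. Tcf7 had 5 shared regions in each list, the strongest 50.8-fold in Treg and 36.6-fold in Tconv, and 4 Treg-only ones (up to 17.4-fold). Bach2 had 21 shared in the Treg list and 5 Treg-only. Prdm1, which encodes Blimp-1, had 4 shared regions and no Treg-only one, with 143 fragments in Treg and 96 in Tconv 10.4 kb inside the gene and 141 and 142 near its start. Tbx21, Id2, Zeb2, Tox2 and Ahr had none.

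Cytokine receptors were Treg-only at 30 of 73 regions (41.1%, 30.5 to 52.6%), a share near the 38.2% of the same strength. Il2ra had 5 shared and 6 Treg-only regions in the Treg list. The strongest shared one, 8.95 kb after the start, had 404 fragments in Treg and 220 in Tconv and also overlapped a region of the unstimulated Treg list. The promoter region had 163 and 122 fragments, and the strongest Treg-only one, 22.8 kb after the start (chr2:11665227-11665975), had 193. Next by their Treg-only regions came Ifngr1 (19-fold), Il18rap (17.8-fold), Il2rb and Il6ra (15.9-fold each).

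The NF-kB subunits and inhibitors were at the other end, with 19 Treg-only regions of 85 (22.4%, 14.8 to 32.3%), against 33.6% at the same strength. Regions were found at 29 of the 34 genes in the Treg list, against 25.2% of all protein-coding genes, and at 29 in the Tconv list. Both lists had regions at 28 of the 34, against 15.7% of all protein-coding genes. Nfkbia, the gene of the inhibitor IkB alpha, had the region of highest fold in the Treg list (102-fold in Treg and 82.3-fold in Tconv), with 616 and 491 fragments. It also had 3 Treg-only regions, of 160, 45 and 135 fragments, beside 3 shared ones. Nfkbid, which encodes a nuclear IkB protein, had 517 and 416 fragments at its shared region. The precursor gene Nfkb2 was bound at 52.3-fold in Treg and 56.4-fold in Tconv, and Rela, which encodes p65 itself, at 13.5-fold and 19.2-fold.

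Immediate-early factors were Treg-only at 26 of 81 regions (32.1%, 22.9 to 42.9%), against 34.8% at the same strength. Egr2 (69.8-fold in Treg and 48.7-fold in Tconv), Nr4a3 (89-fold and 53.1-fold) and Fos (66.7-fold and 51.9-fold) had shared regions, and the strongest Treg-only ones were at Bhlhe40 (19.4-fold), Myc (16.8-fold), Fosb (15-fold) and Rcan1 (13.3-fold). T cell receptor signalling genes were Treg-only at 82 of 192 regions (42.7%, 35.9 to 49.8%), against 45.1%. Their strongest Treg-only regions were at Lcp2, the adaptor SLP-76 (28.3-fold), Prkcq (23.7-fold), Ubash3b (20.9-fold) and Ptpn22 (16.3-fold). Rasgrp1, which activates Ras after receptor signals, had a shared region of 604 fragments in Treg and 255 in Tconv, 47.4 kb outside the gene.

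Cytokines and TNF ligands were Treg-only at 16 of 44 regions (36.4%, 23.8 to 51.1%), near the 35.6% of the same strength. Of their 29 Tconv regions, 3 were Tconv-only (10.3%), against 4.15% over all Tconv regions, with 1 each at Il2, Il21 and Fasl. The Treg-only regions were led by Tnfsf8, the ligand of CD30 (22.7-fold), Ifng (19.5-fold), Tnfsf9 (18.8-fold) and Lif (13.1-fold). Survival genes had 34 of 64 (53.1%, against 40.6% at the same strength), led by Pim1 (25.4-fold), Bcl2 (22.4-fold), Casp8 (18-fold) and Xiap (17.8-fold). Trafficking genes had 31 of 79 (39.2%, against 42.4%), led by S1pr1, the receptor for lymph node exit (23.7-fold). MAP kinase feedback genes had 34 of 66 (51.5%, against 42.9%), led by the phosphatase gene Dusp4 (27-fold), and JAK, STAT and SOCS genes 34 of 63 (54%, against 51.7%), led by Socs2 (18.3-fold).

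**Figure D3:**
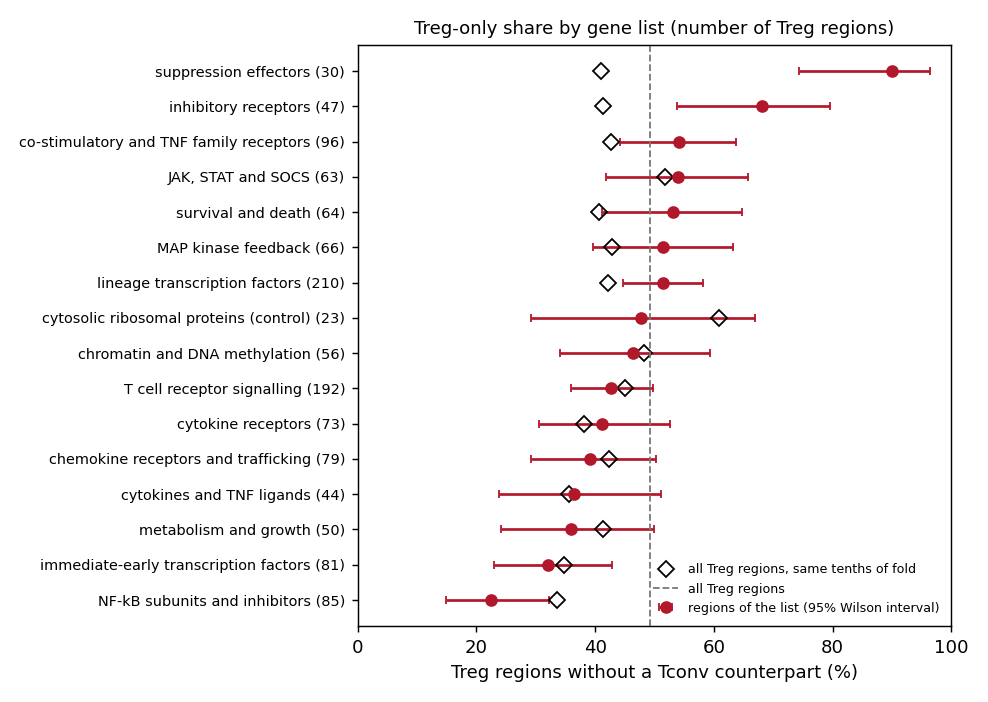
Percent of the Treg regions assigned to each gene list that had no Tconv counterpart (horizontal axis), with 95% Wilson intervals over regions and the number of Treg regions in parentheses. Diamonds give all Treg regions from the same bins of fold and the dashed line all Treg regions (49.3%), with suppression effectors at 90% and NF-kB genes at 22.4%.

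The ratio of Treg to Tconv fold in shared regions had a median of 1.17, and 67.5% of the 5614 ratios were above 1. The strongest summits of the 2 lists lay a median of 15 bp apart and within 100 bp in 91.8% of shared regions. Across shared regions the folds had a Spearman rho of 0.65, as a description of regions that share their 2 lists. Among the 5049 pairs that overlapped only each other with summits within 250 bp, the median ratio was 1.18, 396 were above 2 and 17 below 0.5. By bin of Treg fold, which is itself part of the ratio, their median ran from 0.744 in the weakest bin to 0.984 in the fifth and 1.61 in the strongest.

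The ratio differed between kinds of shared regions. Its median was 1.29 over the 3060 pairs without an unstimulated counterpart and 1.03 over the 1989 with one. It was 1.31 over the 3108 pairs away from gene ends and 1.03 over the 1941 within 1 kb of a gene end. No test was made of these medians, and the 2 splits overlap.

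**Figure D4:**
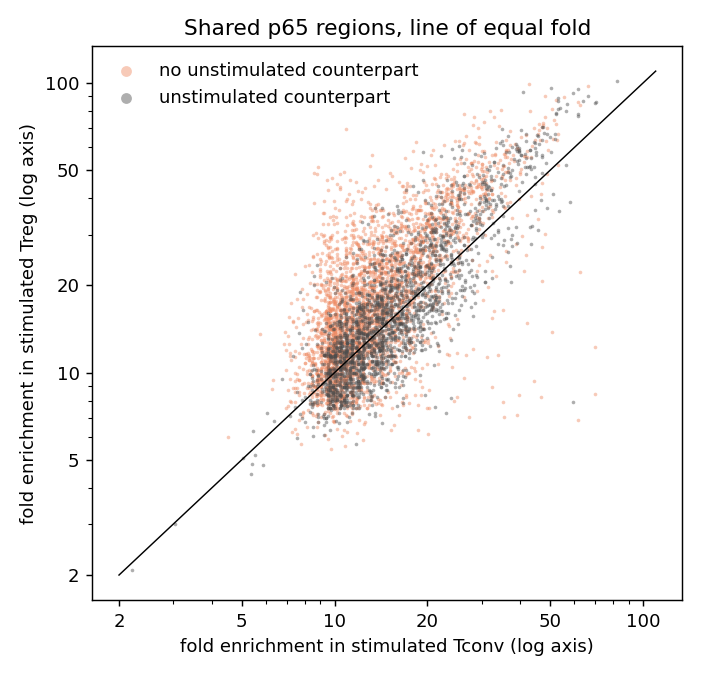
Fold enrichment of each shared region in stimulated Tconv (horizontal log axis) and stimulated Treg (vertical log axis), 5614 points coloured by whether an unstimulated list also held the region, with the line of equal fold. Points without an unstimulated counterpart reach farther above the line, and their median ratio in one-to-one pairs was 1.29 against 1.03.

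Among the strongest shared regions of the Treg list, Nfkbia was followed by Rasgrp1 (99.6-fold in Treg and 42.8-fold in Tconv), Hspb7 (97.5 and 66.3), the adhesion receptor Cd2 (96.5 and 50.5), Nr4a1, Cish, a feedback inhibitor of cytokine signals (93.3 and 40.7), Tpst2 (92.8 and 59.4) and the receptor-proximal kinase Zap70 (90.2 and 48.2).

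Some shared regions were far stronger in Treg. Among one-to-one pairs at or above the median fold of both lists, a region inside Lclat1, which encodes an acyltransferase of cardiolipin and related lipids, had 347 fragments in Treg and 79 in Tconv (4.28 times the fold). A region inside Exoc2, of the exocyst complex, had 390 and 96 (3.96 times) and one inside Prkca 379 and 109 (3.4 times). Regions at Lnx2, Upb1, Khdc1a, Samsn1, the chemokine receptor Cx3cr1 and Cwc27 followed, with ratios from 3.34 to 2.98. None of these overlapped an unstimulated region.

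At the other end, a region inside Baiap2 had 69 fragments in Treg and 158 in Tconv (0.433 times the fold), and one inside Rapgef4, which encodes a cAMP-activated exchange factor, 79 and 152 (0.501 times). The next 8 lowest were at Foxj2, Crtc1, Pomt1, Pola2, Rpa1, Slx4, Vars2 and Hsf1, with ratios from 0.546 to 0.584. Of these, Pola2, Rpa1 and Slx4 serve DNA replication and repair, and Hsf1 encodes the heat shock factor. All but Rpa1 overlapped an unstimulated Treg region.

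The Tconv-only regions were few, scattered and within a narrow range of strength, from 56 to 131 fragments. The 225 with a gene within 50 kb were assigned to 220 genes (1.01% of all genes). Of these genes, 89 also had a Treg region, 66 of them a Treg-only one, and 131 had no Treg region. Only Unkl, Cdk17, Rap1b, Gramd3 and Mcoln2 had 2. The strongest lay inside Enc1, an actin-binding protein gene (chr13:97242677-97244198), with 107 fragments and 17.8-fold enrichment, 103955 bp from the nearest Treg region. Next came regions at Vdac1 and Spring1 (15.4-fold each), Foxp1 (15.2-fold), Skor1 (15.1-fold), Lipt2 (14.9-fold), Zc3hc1 (14.7-fold), and Pakap and the repressor gene Bcor (14.6-fold each).

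The cytokine genes Il2 and Il21, neighbours on chromosome 3, were among the Tconv-only genes. Il2, the growth factor of activated T cells, had a Tconv-only region 26.5 kb outside the gene (73 fragments, 9.95-fold) and beside it a shared one with 59 fragments in Tconv and 48 in Treg. Il21, a cytokine of helper T cells, had a single Tconv-only region 17.3 kb outside the gene (60 fragments, 8.57-fold). All these values are near the lower end of the lists. Tconv-only regions at other genes of the lists lay at Lef1, Klf2, Runx3, Tnfrsf9, Il6st, Tgfbr3, Cd44, Fasl, Plcg1, Vav1, Cblb, Grap2, Rictor, Dusp2 and Kmt2d, between 8.32-fold (Cblb) and 13.6-fold (Vav1). At each of these genes the lists also had shared regions. Klf2, which encodes a factor of naive and recirculating T cells, had a Tconv-only region of 72 fragments 9.45 kb outside the gene, beside shared regions of up to 342 fragments in Treg and 229 in Tconv.

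Treg-only regions lay less often near gene ends than shared regions of the Treg list. The summit was within 1 kb of the start or end of a gene in 1464 of 5463 Treg-only regions (26.8%) and 2097 of 5614 shared regions (37.4%). The odds ratio was 0.614 (two-sided Fisher's exact test over regions, adjusted p = 2.32e-32 over 4 tests), and 0.315 (0.284 to 0.349) when pooled over bins of fold by the Cochran-Mantel-Haenszel method. Summits inside a gene but more than 1 kb from any gene end made up 43.1% of Treg-only and 36.5% of shared regions. Those farther than 50 kb from any gene made up 8.91% and 6.25%. Both classes leave out summits near gene ends, so they are not independent of the difference above. Within the strongest bin, which held only 54 Treg-only regions, 1.85% of these and 16% of shared regions were near a gene end. In the third bin, where the Treg-only share was highest, the values were 38% and 53.6%.

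Tconv-only regions were near a gene end in 98 of 238 (41.2%), against 2090 of 5496 shared regions of the Tconv list (38%). The odds ratio of 1.14 did not pass the test (two-sided Fisher's exact test, adjusted p = 0.34). By the same Fisher's exact test it was 1.68 (adjusted p = 7.14e-10) at the common cut-off and 0.693 (adjusted p = 1.97e-05) with 50% reciprocal overlap.

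Treg-only regions were mostly absent from the unstimulated lists. An unstimulated region of either cell type overlapped 564 Treg-only regions (10.3%) and 2179 shared regions of the Treg list (38.8%). The odds ratio was 0.181 (two-sided Fisher's exact test, adjusted p = 1.36e-277), or 0.131 (0.115 to 0.149) within bins of fold. This readout includes unstimulated Tconv, the cell type whose stimulated list defines the classes. Any overlap with the unstimulated Treg list was found for 8.86% and 36.1%. Treg-only regions were also narrower (median 822 bp against 1130 bp), and the part of width in these shares was not tested. Of the Treg-only regions, 141 (2.58%) overlapped the unstimulated Treg list alone, 80 (1.46%) the unstimulated Tconv list alone and 343 (6.28%) both. Thus 423 of the 5463 regions absent from the stimulated Tconv list were in the unstimulated Tconv list (7.74%), which reached down to 27 fragments.

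Of the Tconv-only regions, 82 (34.5%) had an unstimulated counterpart, against 39.5% of shared regions of the Tconv list. The odds ratio of 0.806 did not pass the test (two-sided Fisher's exact test, adjusted p = 0.181), and it was 1.22 (adjusted p = 0.0197) at the common cut-off and 0.569 (adjusted p = 8.91e-11) with 50% reciprocal overlap. In 69 of the 82 both unstimulated lists held the region, and 5 were in the unstimulated Treg list alone.

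**Figure D5:**
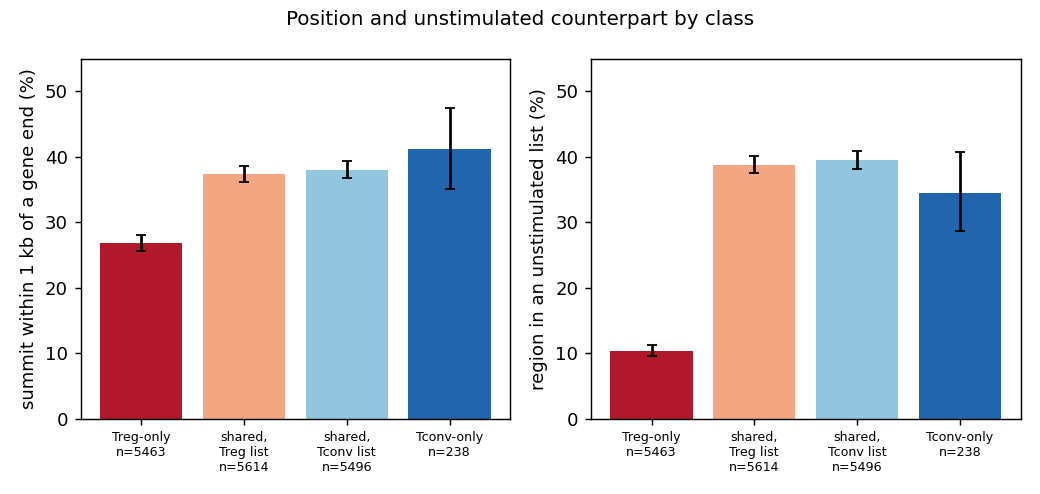
Percent of regions with the summit within 1 kb of a gene end (left) and percent overlapping a region of either unstimulated list (right), as bars from 0 with 95% Wilson intervals over regions, for the 4 classes and their number of regions. Treg-only regions are lowest in both panels, at 26.8% and 10.3%.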

How the data were processed

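ChIP-seq for p65 was made from 8 precipitated and 2 mixed input libraries. The submitters' processing notes list MACS2 2.1.1.20160309, Trim Galore 0.4.1 and BWA 0.7.15-r1140, and the build mm10. By their deposited names, the lists hold peaks called on both libraries together, cleared of blacklisted stretches and kept by the conservative form of a reproducibility (IDR) filter. Fold enrichment at a summit is the authors' deposited ratio over the local background. The −log10 p is the authors' deposited value, and the deposited score is 10 times it in 100% of entries. The use of input is not stated in the labels, and library depth is unknown.

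Overlapping entries were merged and compared with Python 3.11.15, numpy 2.4.6, pandas 2.3.3 and scipy 1.17.1, with scripts checked on simulated lists. Fragments at a summit were recovered by inverting the peak caller's fold (1 fragment added to both terms) and Poisson tail, a step added after the data were seen, as was the restriction of ratio extremes to one-to-one pairs. Genes (21883 protein-coding) and promoter windows (17491 of these genes, 79.9%) came from RefSeq GRCm38.p6, so distances to a listed start are incomplete. The gene table gives neither exons nor introns. Motifs were searched in promoter windows only.

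Named genes are those of the 15 strongest regions of each class, of the 10 highest and 10 lowest shared ratios, the 10 with most Treg-only (with and without a Tconv region) or Tconv-only regions, up to 4 per gene list by Treg-only fold, and list genes with a Tconv-only region. Other genes of the lists, such as Tgfb1, Prdm1, Tcf7, Icos, Pdcd1 and Tnfrsf18, were named after their values were seen. Some genes the rule names are covered by counts alone. The members and lists were chosen with earlier results of these data known. Alternatives varied the overlap, list length, cut-off, gene distance and value per region.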

Additional observations from a re-analysis of the deposited data

How the results depend on the processing

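No paired analysis was possible because each deposited list pools both libraries of a group, and for the same reason leaving out a replicate was not run. The share of Treg regions without a Tconv counterpart (49.3%) was 54.6% with 50% reciprocal overlap, 50.9% with summits within 250 bp, 46.3% with the other list widened by 1 kb, 51% among regions at or above each list's median −log10 p, 38.1% at a common −log10 p cut-off, 25.6% at equal list lengths and 44.9% without merging. The Tconv share (4.15%) was 12.3%, 4.76%, 3.94%, 7.71%, 11.5%, 26.3% and 3.7% under the same settings in that order.

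Both odds ratios of Treg-only regions kept their direction and side of the threshold under all settings tried (0.315 to 0.639 for position, 0.131 to 0.189 for the unstimulated counterpart). The odds ratio of Tconv-only position (1.14) turned to 0.693 with 50% reciprocal overlap and passed the threshold at 1.68 at the common cut-off. That of the unstimulated counterpart (0.806) turned to 1.22 at the common cut-off and 1.08 when pooled over bins of fold, and passed the threshold at 0.569 with 50% reciprocal overlap. The cause was not tested. At the common cut-off, a setting added after the data were seen, 1135 genes had regions in the Treg list alone and 467 in the Tconv list alone, against 2077 and 181. With every gene within 50 kb counted, 8026 genes had regions in both lists, against 3428. The median Treg to Tconv ratio of shared regions was 1.29 in −log10 p, against 1.17 in fold. Of 64 alternative values for single gene lists, 60 stayed within the list's interval and 4 did not, all at the common cut-off.

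Absence from a list is not absence of binding: the Tconv list ends at 56 fragments and the Treg list at 45.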

Other observations

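Regions on the X chromosome were more often Treg-only than those of the autosomes. Of the 198 Treg regions on X, 132 were Treg-only (66.7%, 95% Wilson interval 59.8 to 72.9%), while the autosomes ranged from 43% on chromosome 7 to 56.6% on chromosome 16. The Tconv list had 71 regions on X, of which 5 were Tconv-only. The X-linked genes above include Foxp3, Xiap and Bcor, which had 4 Treg-only, 3 shared and 1 Tconv-only region. The shares of chromosomes were not set beside regions of the same strength, although weak regions were more often Treg-only. The sex of the mice is not in the labels, and no test was made.

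The remaining gene groups had shares near or below that of all Treg regions. Genes of chromatin and DNA methylation were Treg-only at 26 of 56 regions (46.4%, against 48.3% at the same strength), led by Hdac9 (14.1-fold), Smarca4 (13.3-fold) and Eed (13-fold). Genes of metabolism and growth were Treg-only at 18 of 50 (36%, against 41.4%), led by Pik3r1, a regulatory subunit of PI3 kinase (26.1-fold), and Hif1a, the oxygen-responsive factor (18.6-fold), whose strongest shared region was bound at 46.3-fold in Treg and 9.45-fold in Tconv. The cytosolic ribosomal protein genes, taken as a control, were Treg-only at 11 of 23 (47.8%, against 60.9%), and Rpl3 had the strongest of these (13.5-fold). Among olfactory and keratin genes, a second control, 1 of 20 had a region in the Treg list (Gnal, 8.46-fold), against 25.2% of all protein-coding genes.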
